A study of Mus musculus with 12 samples.

Results

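The genes followed here are 10 liver genes for secreted hormones and their partners: the growth factors Gdf15 and Fgf21, the activin beta subunit genes Inhba, Inhbb, Inhbc and Inhbe, the activin-binding protein gene Fst, the leptin receptor gene Lepr, and the plasma protein genes Fetub and Selenop. They were taken by gene symbol from the 54838 genes of the count table; the rule used no measured value, although the list was drawn up with earlier results of these data known. Each of the 10 symbols matched 1 Ensembl identifier. The livers came from 12 female C57BL/6J mice aged 8 to 14 weeks, sequenced in 4 groups of 3 mice described as biological replicates. Water-PBS mice drank plain water and received PBS (the injection vehicle) intraperitoneally, and zinc-PBS mice drank 25 mM ZnSO4 for 7 days before the PBS injection. Water-Dex mice drank plain water and were injected with 200 µg of dexamethasone (Dex, a synthetic glucocorticoid), and zinc-Dex mice received both the 7 days of 25 mM ZnSO4 and the Dex injection. All livers were taken 2 h after the injection, so the Dex comparisons cover an early response and the zinc comparisons a week of supplementation, and all animals shared the same strain background with no transgene.

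Hepatokines are proteins that the liver releases into the circulation to act on other organs. Many of them belong to the TGF-beta family, whose members are made as subunits that pair into disulphide-linked dimers and signal through serine/threonine kinase receptors and SMAD proteins. Activins are dimers of beta subunits: activin A and activin B are built from the products of Inhba and Inhbb, while Inhbc and Inhbe are expressed mainly in hepatocytes. FGF21 is an endocrine member of the FGF family that needs the co-receptor beta-Klotho, and GDF15 is a distant TGF-beta relative that acts on a receptor in the hindbrain; both are known as hormones of metabolic and cellular stress. Glucocorticoids act in liver through a nuclear receptor that binds DNA and changes transcription within hours.

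Sequencing depth lay between 9091152 and 12303527 counted reads per library. The treatments were visible in the check genes: the metallothionein gene Mt1 stood at 349 ± 122 normalized counts in water-PBS livers and 5106 ± 1479 in zinc-PBS livers (mean ± SD, n = 3 mice), and the zinc importer gene Slc39a4 fell from 666 ± 95.3 to 236 ± 22.5. Mt1 also rose with Dex alone, to 7558 ± 62.4 in water-Dex livers. In Dex-injected mice the zinc rise of Mt1 was 0.84 on the log2 scale, called in 3 of 12 fits without 1 library, and Slc39a4 fell by -1.54. The glucocorticoid targets Tsc22d3, Fkbp5 and Per1 each rose with Dex in water mice, Per1 from 137 ± 67.7 to 275 ± 14.6 normalized counts and the other 2 with log2 fold changes of 2.28 and 3.12. A normalized count is the read count divided by a size factor for the library. All 6 hepatocyte markers were detected, their summed level lying between 1152673 and 1337263 in the PBS groups and between 1547659 and 1701437 in the Dex groups, with Tat, itself a glucocorticoid target, as the only 1 of the 6 that was called with Dex. Alb, averaging 1188906 normalized counts over the 12 livers, made up most of this sum. Summed markers of lymphocytes, 5 genes, were lower with Dex, at 32.3 to 45.1 normalized counts in PBS livers against 12.8 to 23.9. These 5 genes averaged only 4.69 to 7.11 normalized counts each. Of them Ms4a1 alone was called with Dex in water mice (-2.80) and 0 in zinc mice, and Nkg7 stood at -0.26 and 0.29. A contrast of Dex averaged over water and zinc mice was added after the data were seen. In it 3 of the 5 were called lower, against 10.3% of all tested genes in either direction. They were Ms4a1 (-2.24), Cd79a (-1.66) and Cd3g (-1.25), called in 12, 7 and 2 of the 12 fits without 1 library. Cd3e (-0.93) and Nkg7 (0.01) were not called. The 6 Kupffer cell markers overlapped between groups (3846 to 5503 in PBS and 4178 to 5272 in Dex livers). Of 6 sinusoidal endothelial markers Lyve1 rose and Kdr fell with Dex. Of 7 stellate cell markers only Hand2 was called, higher with Dex in zinc mice (0.94) and at -0.08 in water mice. Lrat, another of the 7, was lower with Dex (-0.72 in water and -0.43 in zinc mice), under the fold threshold. Of 5 red blood cell markers Hba-a1 was called higher with Dex in zinc mice (0.95, adjusted p = 0.00223), and 3 of 6 pancreas markers were at 0 in every library. The summed red blood cell markers lay between 778 and 1561 normalized counts in PBS livers and between 1212 and 2135 in Dex livers, and the globin genes Hba-a1, Hba-a2, Hbb-bs and Hbb-bt were 0.66 to 0.68 higher with Dex on the log2 scale averaged over water and zinc mice, under the fold threshold. The 5 cholangiocyte markers summed to 588 to 1164, the 4 neutrophil markers to 14.9 to 109 and the 4 adipocyte markers to at most 2.17 normalized counts over the 12 livers. The cholangiocyte sums were 731 to 839 in water-PBS, 657 to 1159 in zinc-PBS, 588 to 814 in water-Dex and 947 to 1164 in zinc-Dex livers. Most of these sums was Spp1, which averaged 763 and differed with Dex by -0.11 in water and 0.21 in zinc mice. Sox9 was lower with Dex (-0.74 and -0.82) and Krt7 higher (0.89 and 0.51), and 0 of the 5 were called in either comparison. The neutrophil maximum of 109 was in a zinc-PBS liver, against at most 54.3 in the other groups. The part of these cell types in the values below was not tested, and since whole liver was sequenced, fewer cells of a type and less RNA per cell cannot be told apart.

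Genes were called when the adjusted p of DESeq2, taken over all tested genes, was below 0.05 and the log2 fold change was above 0.8 or below -0.8. With Dex in water mice, 3 of the 10 hepatokine genes were called, Gdf15 higher and Inhba and Inhbe lower, against 9.68% of all tested genes (4.89% higher and 4.79% lower). In zinc-drinking mice Dex called 4 of the 10, those 3 with the same signs and Lepr higher, against 9.68% of all tested genes (5% higher and 4.68% lower). Zinc alone called 0 of 10 in PBS-injected mice (0.138% of all tested genes) and 0 of 10 in Dex-injected mice (0.469%), by DESeq2 and by edgeR alike. In each zinc comparison 3 of the 10 had an unadjusted p under 0.05. The share of all tested genes under that level is not given here, for this or later such counts, so no excess can be read from them. When zinc-Dex was set against water-PBS, 6 of 10 were called: Gdf15, Inhbb and Lepr higher and Inhba, Inhbc and Inhbe lower, against 11.2% of all tested genes (5.59% higher and 5.63% lower). The median log2 fold change of the 10 genes was -0.09 with Dex in water mice and 0.03 in zinc mice, against -0.01 over all tested genes in both, since the called members lay on both sides of 0.

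**Figure D1:**
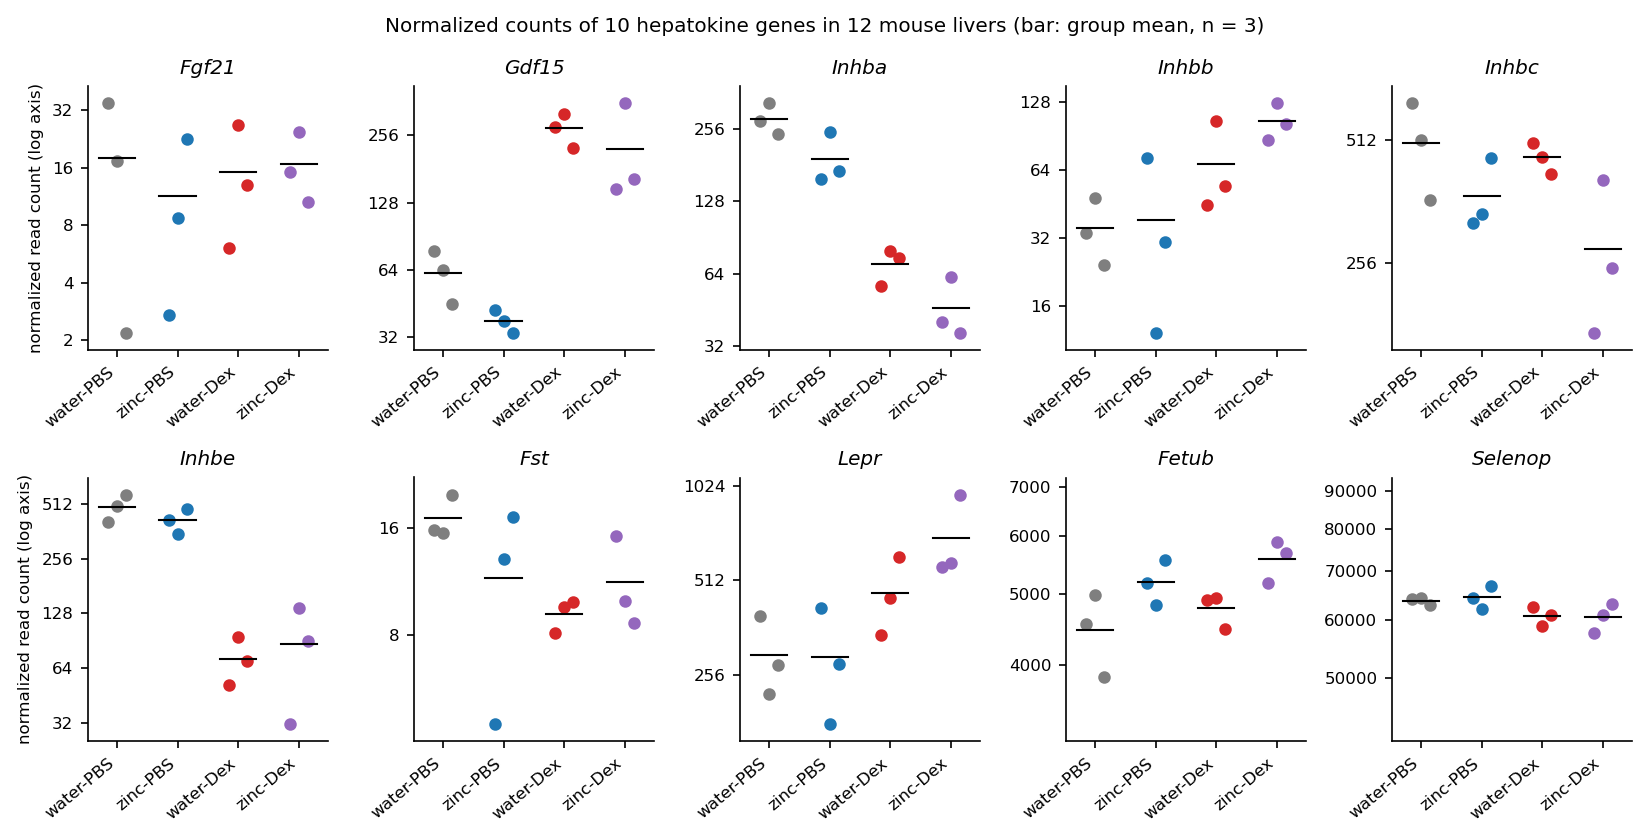
Normalized read counts of the 10 genes in each of the 12 livers, on log axes that differ between panels; points are mice and bars are group means of 3. Gdf15 was higher in all 6 Dex livers (147 to 357) than in any PBS liver (33.5 to 77.7), and Inhba and Inhbe were lower in all 6 Dex livers than in any PBS liver, while the groups overlapped for Fgf21.

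Levels of different genes were compared as normalized counts per kilobase of exon. Selenop, the plasma carrier of selenium, was the highest of the 10 in every group, with group means of 21309 to 22680 per kilobase, followed by Fetub, an inhibitor of astacin-type proteases, at 2273 to 2849. Inhbc came next in every group, from 148 ± 64.2 in zinc-Dex to 269 ± 71.3 in water-PBS livers (SD, n = 3). The rank below it changed with Dex. In PBS livers the next gene was Inhbe (92.9 ± 15.8 per kilobase in water-PBS), and in Dex livers it was Gdf15 (water-Dex 148 ± 25.3, zinc-Dex 120 ± 62.9). The gap between Inhbc and Inhbe depends on the length taken for Inhbe. With its shorter RefSeq span of 2447 bp, Inhbe averaged 202 per kilobase in water-PBS livers. That lay inside the Inhbc range of 196 to 338 there, so their order was then not resolved. Inhbc, Gdf15 and Lepr overlapped from one to the next in zinc-Dex livers, as Inhba, Lepr, Gdf15, Fgf21 and Inhbb did in water-PBS livers, so their order within those runs was not resolved. Fst had the lowest mean in every group, at 2 to 3.7 per kilobase, and in zinc-PBS livers it overlapped Inhbb, the next above it.

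Gdf15 was the hepatokine gene that rose most with Dex. Its 3 water-PBS livers held 77.7, 63.7 and 45 normalized counts and its 3 zinc-PBS livers 42.4, 37.6 and 33.5. The water-Dex livers held 279, 319 and 226, and the zinc-Dex livers 147, 357 and 164. Every Dex liver was above every PBS liver, and within the zinc-Dex group 1 liver stood well above the other 2. The rise was 4.41-fold in water mice (log2 fold change 2.14, SE 0.301, adjusted p = 3.7e-11) and 5.87-fold in zinc mice (log2 fold change 2.55, SE 0.311, adjusted p = 9.0e-15). The difference between the 2 rises, tested as an interaction of zinc and Dex, was 0.41 on the log2 scale (95% interval -0.44 to 1.26, adjusted p = 0.999 in DESeq2). Zinc-PBS livers all lay below the water-PBS livers, with a log2 fold change of -0.72 (SE 0.323) that did not pass after adjustment over all genes (unadjusted p = 0.0264, adjusted p = 0.741). In Dex-injected mice the zinc difference was -0.30 (SE 0.288, adjusted p = 0.843), and without zinc-Dex replicate 2, the high liver, it was -0.82 with an adjusted p of 0.0111, which would have been called. The gene lies at chr8:70629393-70632456 on the minus strand (GRCm38, GENCODE M21).

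Inhba, the subunit of activin A, fell with Dex. The normalized counts were 277, 328 and 244 in water-PBS and 159, 248 and 172 in zinc-PBS livers. The water-Dex livers held 56.9, 79.8 and 74.2, and the zinc-Dex livers 40.2, 62.2 and 36.5. No Dex liver reached the lowest PBS liver. Dex lowered Inhba 4.03-fold in water mice (log2 fold change -2.01, SE 0.226, adjusted p = 3.1e-17) and 4.19-fold in zinc mice (-2.07, SE 0.24, adjusted p = 3.6e-16), and zinc-Dex livers were 6.15-fold below water-PBS livers. The interaction was -0.06 (95% interval -0.70 to 0.59). Zinc by itself went the same way in both backgrounds without being called, at -0.55 (SE 0.21, adjusted p = 0.473) in PBS-injected and -0.61 (SE 0.254, adjusted p = 0.312) in Dex-injected mice.

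Inhbb, the subunit of activin B, had higher group means with Dex. Its counts were 33.6, 48.2 and 24.2 in water-PBS livers and 72.2, 12.2 and 30.8 in zinc-PBS livers. They were 44.7, 105 and 54.4 in water-Dex livers and 86.9, 126 and 102 in zinc-Dex livers. Every zinc-Dex liver was above every PBS liver, while the water-Dex and PBS livers overlapped and zinc-PBS replicate 1 stood apart within its group. Neither Dex comparison was called (0.94, SE 0.593, adjusted p = 0.286 in water mice; 1.45, SE 0.587, adjusted p = 0.0637 in zinc mice), and without zinc-PBS replicate 1 the latter was 2.29 with an adjusted p of 1.6e-06, and without water-Dex replicate 2 its adjusted p was 0.0054. The contrast of zinc-Dex with water-PBS passed narrowly at 1.56 (SE 0.591, adjusted p = 0.0359). It was not called without water-PBS replicate 1 or 3, without water-Dex replicate 3 or without any 1 of the 3 zinc-Dex livers, with adjusted p from 0.0506 to 0.146, nor without independent filtering (adjusted p = 0.0656). Averaged over water and zinc mice, a contrast added after the data were seen, the Dex difference of Inhbb was 1.20 (SE 0.417, adjusted p = 0.0178, with 5 of the 10 genes and 10.3% of all tested genes called), and it was lost without water-PBS replicate 3, zinc-PBS replicate 3 or zinc-Dex replicate 2 (adjusted p from 0.0535 to 0.0556).

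Inhbe was the hepatokine gene that fell most with Dex, and Inhbc, its neighbour in the genome, moved little. The 2 genes lie on the minus strand of chromosome 10 with a gap of 1910 bp between them, Inhbe at chr10:127348857-127354411 and Inhbc at chr10:127356322-127370431 (GRCm38, GENCODE M21). Inhbe stood at 409, 498 and 577 normalized counts in water-PBS livers and 420, 351 and 479 in zinc-PBS livers. With Dex it stood at 51.8, 94.7 and 70.2 in water mice and 31.5, 138 and 90.4 in zinc mice. The Dex and PBS livers did not overlap, and the zinc-Dex livers were the most scattered. The fall was 6.85-fold in water mice (log2 fold change -2.78, SE 0.446, adjusted p = 1.2e-08) and 4.81-fold in zinc mice (-2.27, SE 0.445, adjusted p = 5.6e-06), with an interaction of 0.51 (95% interval -0.73 to 1.74). Zinc changed Inhbe by -0.25 (SE 0.437) in PBS-injected and 0.26 (SE 0.454) in Dex-injected mice, neither of them called.

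Inhbc counts were 628, 511 and 364 in water-PBS, 320, 337 and 462 in zinc-PBS, then 502, 465 and 422 in water-Dex livers and 173, 407 and 248 in zinc-Dex livers. The water-Dex livers lay inside the wider range of the water-PBS livers, and the zinc-Dex livers lay below the water-Dex livers without overlap. The Dex difference was -0.11 (95% interval -0.61 to 0.38) in water mice and -0.44 (-0.94 to 0.07) in zinc mice, so a fall of the size seen for Inhbe lay outside both intervals. Zinc-Dex livers were 1.82-fold below water-PBS livers (-0.86, SE 0.256, adjusted p = 0.00505). That call was lost without water-PBS replicate 1 (-0.67, adjusted p = 0.0595), without water-Dex replicate 2 (adjusted p = 0.0553), without zinc-Dex replicate 1 (-0.61), without zinc-Dex replicate 3 (-0.79, below the fold threshold), and when only the libraries compared were fitted (adjusted p = 0.161). The zinc difference in Dex-injected mice was -0.75 (SE 0.257, adjusted p = 0.145), and without zinc-Dex replicate 2 it was -1.14 with an adjusted p of 0.000189. Leaving out the same liver also put the Dex difference of Inhbc in zinc mice past both thresholds (-0.82, adjusted p = 0.00361).

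The ratio of Inhbe to Inhbc within the same liver does not depend on the size factors. It was 0 on average on the log2 scale in water-PBS (SD 0.64) and 0.17 in zinc-PBS livers (SD 0.20), against -2.72 (SD 0.50) in water-Dex livers and -1.82 (SD 0.55) in zinc-Dex livers. The 6 Dex livers all lay below the 6 PBS livers. The Dex difference of the ratio was -2.36 on the log2 scale, 5.12-fold, with a 2-sided exact permutation p of 0.005 when Dex labels were exchanged within water and within zinc mice, the smallest that the 400 exchanges allow. This ratio was chosen for testing after the data were seen, and its Dex difference ranged from -2.51 to -2.19 on the log2 scale without any 1 library.

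**Figure D2:**
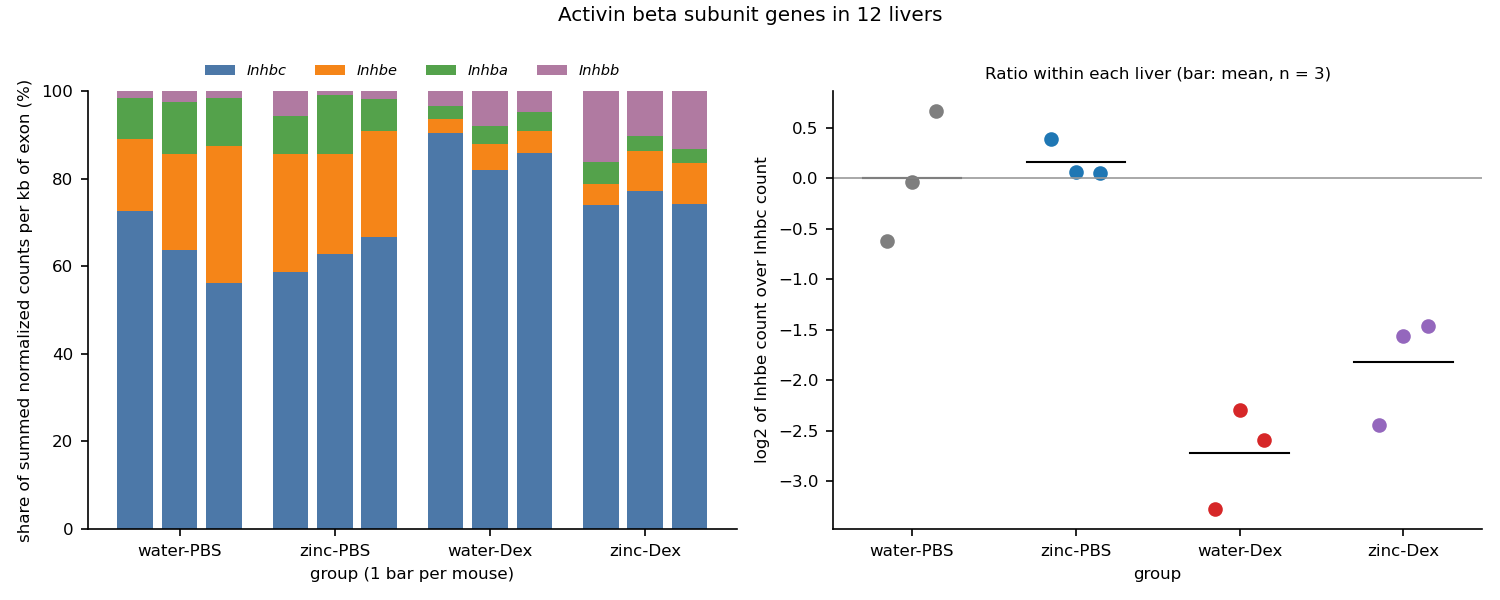
Left, share of each activin beta subunit gene in the summed normalized counts per kilobase of exon of the 4 genes, 1 bar per liver; right, log2 of the Inhbe over the Inhbc normalized count in each liver, with group means of 3 as bars. The Inhbe share averaged 23.1% in water-PBS and 4.69% in water-Dex livers, and the ratio was lower in each of the 6 Dex livers than in any of the 6 PBS livers.

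The make-up of the activin beta subunit transcripts changed accordingly. Per kilobase of exon, Inhbc made up 64.2 ± 8.15% of the 4 subunit genes in water-PBS livers, Inhbe 23.1 ± 7.44%, Inhba 10.7 ± 1.31% and Inhbb 1.99 ± 0.558% (SD, n = 3). In water-Dex livers the shares were 86 ± 4.15% for Inhbc, 4.69 ± 1.31% for Inhbe, 3.82 ± 0.743% for Inhba and 5.48 ± 2.37% for Inhbb. In zinc-Dex livers Inhbb reached 13.3 ± 2.94%, and Inhba lay at 3.87 ± 0.994%. The normalized count of Inhba was 2.2 to 20.3 times that of Inhbb in the 6 PBS livers and 0.358 to 1.36 times in the 6 Dex livers. By these counts Inhba was the more abundant in every PBS liver and the less abundant in all 3 zinc-Dex livers. Per kilobase of exon, as for the shares, Inhba lay above Inhbb in all 6 PBS livers and below it in all 6 Dex livers. In the water-Dex livers these shares were 2.98 against 3.51%, 4.09 against 8.11% and 4.38 against 4.83%. The share of Inhbe depends on its gene model, because its only GENCODE transcript is 5319 bp long whereas the RefSeq gene spans 2447 bp within it. With the RefSeq span as its length, the Inhbe share was 39.1 ± 9.87% in water-PBS and 9.64 ± 2.58% in water-Dex livers. That span is a genomic length that includes any intron, whereas the lengths of the other subunit genes are exon lengths.

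Promoter sequence was available for 9 of the 10 genes, all but Fst, from RefSeq (GRCm38.p6, 250 bases before to 50 bases after the start site). The 9 genes had 14 windows, because some have more than 1 start site. Short motifs were searched on both strands, and the rarest of those found was TGATGCAA, a composite element that joins the sites of CHOP (the product of Ddit3) and ATF proteins of the integrated stress response. It is present in 0.895% of 32851 promoter windows, and among the 14 windows only in those of Inhbe and Fgf21, 2 of the 9 genes. Those windows are given because they belong to Inhbe, which fell most with Dex, and to Fgf21, which carries the same letters without a called change. Capitals mark the motif matches, all written here on the opposite strand of the motif and so read TTGCATCA, and in Fgf21 also a match to the metal response core TGCACNC, which 12.6% of windows hold.

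Inhbe, chr10:127351799-127352098, minus strand: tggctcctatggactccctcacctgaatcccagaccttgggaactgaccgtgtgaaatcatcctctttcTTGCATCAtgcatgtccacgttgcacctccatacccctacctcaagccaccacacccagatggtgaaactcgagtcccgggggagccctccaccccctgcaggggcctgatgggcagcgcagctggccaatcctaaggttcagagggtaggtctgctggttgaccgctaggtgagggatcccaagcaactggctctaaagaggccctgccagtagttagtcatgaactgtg

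Fgf21, chr7:45615441-45615740, minus strand: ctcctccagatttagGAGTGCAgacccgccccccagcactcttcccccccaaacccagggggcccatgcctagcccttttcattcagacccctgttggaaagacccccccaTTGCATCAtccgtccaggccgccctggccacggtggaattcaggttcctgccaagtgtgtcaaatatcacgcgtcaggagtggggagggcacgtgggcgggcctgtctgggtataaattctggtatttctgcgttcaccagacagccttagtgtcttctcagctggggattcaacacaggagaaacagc

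Counted from the RefSeq start site, the composite element begins at position -181 in Inhbe and at position -139 in Fgf21. The RefSeq start of Inhbe lies inside the longer GENCODE model, so its window overlaps that model. The single glucocorticoid receptor site AGAACA, held by 19% of windows, was found in windows of Inhbb and Fetub and not in those of the other 7 genes. In Fetub it was in the downstream window, from chr16:22919972, and not in the window from chr16:22918132. The metal response core TGCGCNC, held by 15.4%, was found in windows of Inhbb and Lepr. The full glucocorticoid receptor palindrome, which contains AGAACA, was found in none of the 9 genes' windows and in 0.00913% of all windows, and the cyclic AMP response element TGACGTCA in none of the 9 and in 1.79% of all. A match is a stretch of letters and not a measured binding site, and its absence concerns only these 300 bases.

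Fgf21 was sparsely counted and varied widely between mice of a group. Its raw counts ran from 2 to 33 reads. Water-PBS livers held 34.7, 17.3 and 2.2 normalized counts, zinc-PBS livers 2.71, 8.74 and 22.6, water-Dex livers 6.09, 26.6 and 12.9, and zinc-Dex livers 15.2, 24.4 and 10.6. All 4 groups overlapped, and the spread within a group was wider than any difference between group means. The Dex difference was -0.25 (95% interval -1.76 to 1.25) in water mice and 0.56 (-0.97 to 2.08) in zinc mice, and the zinc difference was -0.67 (-2.19 to 0.85) in PBS-injected mice, so each interval held differences of 2-fold in at least 1 direction, which these 3 mice per group do not resolve.

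Fst, whose product follistatin binds and neutralises activins, was lower still per kilobase. The livers held 15.8, 15.5 and 19.8 normalized counts in water-PBS, 4.51, 13.1 and 17.2 in zinc-PBS, then 8.12, 9.57 and 9.89 in water-Dex livers and 15.2, 10 and 8.65 in zinc-Dex livers. In water mice each Dex liver was below each PBS liver, and in zinc mice the groups overlapped. The Dex difference of -0.88 in water mice (SE 0.499, adjusted p = 0.221) was not called, nor was that of -0.05 in zinc mice (95% interval -1.03 to 0.93). A test of the difference between them gave 0.83 (95% interval -0.55 to 2.22).

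Lepr, the receptor for leptin, also gives rise to a circulating soluble form for which the liver is a known source. Its counts were 394, 223 and 276 in water-PBS, 418, 179 and 278 in zinc-PBS, then 343, 449 and 607 in water-Dex livers and 564, 580 and 959 in zinc-Dex livers. All 3 zinc-Dex livers exceeded every PBS liver, and the water-Dex livers overlapped the PBS livers. Dex raised Lepr 2.4-fold in zinc mice (log2 fold change 1.27, SE 0.387, adjusted p = 0.00801), a call that was lost without zinc-PBS replicate 2 (1.01, adjusted p = 0.0545) or without zinc-Dex replicate 3 (0.97, adjusted p = 0.0812). In water mice the difference of 0.65 (SE 0.388, adjusted p = 0.254) was not called, and the 2 Dex differences were not shown to be unequal (interaction 0.62, 95% interval -0.46 to 1.69, adjusted p = 0.999 in DESeq2). Averaged over water and zinc mice the Dex rise was 0.96 (SE 0.274, adjusted p = 0.00271), a contrast added after the data were seen. Zinc-Dex against water-PBS gave 1.24 (SE 0.387, adjusted p = 0.00849), which was lost without water-PBS replicate 2 (1.07, adjusted p = 0.0662) or without zinc-Dex replicate 3 (0.95, adjusted p = 0.0853).

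Fetub and Selenop were the steadiest of the 10. Fetub stood at 4548, 4986 and 3847 normalized counts in water-PBS, 5184, 4830 and 5560 in zinc-PBS, then 4913, 4943 and 4484 in water-Dex livers and 5174, 5898 and 5696 in zinc-Dex livers. Only the zinc-Dex livers lay wholly above the water-PBS livers, by 1.25-fold (0.33, SE 0.104, adjusted p = 0.01), which is under the fold threshold. Zinc raised the mean of Fetub by 0.22 in PBS-injected and 0.23 in Dex-injected mice, with adjusted p of 0.775 and 0.406. Selenop ranged only from 57554 to 66867 normalized counts over the 12 livers, a span of 1.16-fold. Its Dex difference was -0.07 in water mice (95% interval -0.18 to 0.04) and its zinc difference 0.02 in PBS-injected mice (-0.10 to 0.13), so a change beyond the fold threshold lay outside these intervals. The antisense gene Ccdc152 shares 439 bp of exon with Selenop, and it held 37 to 68 reads against 52988 to 73861 for Selenop; whether the counting used strand is not given in the sources used here.

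**Figure D3:**
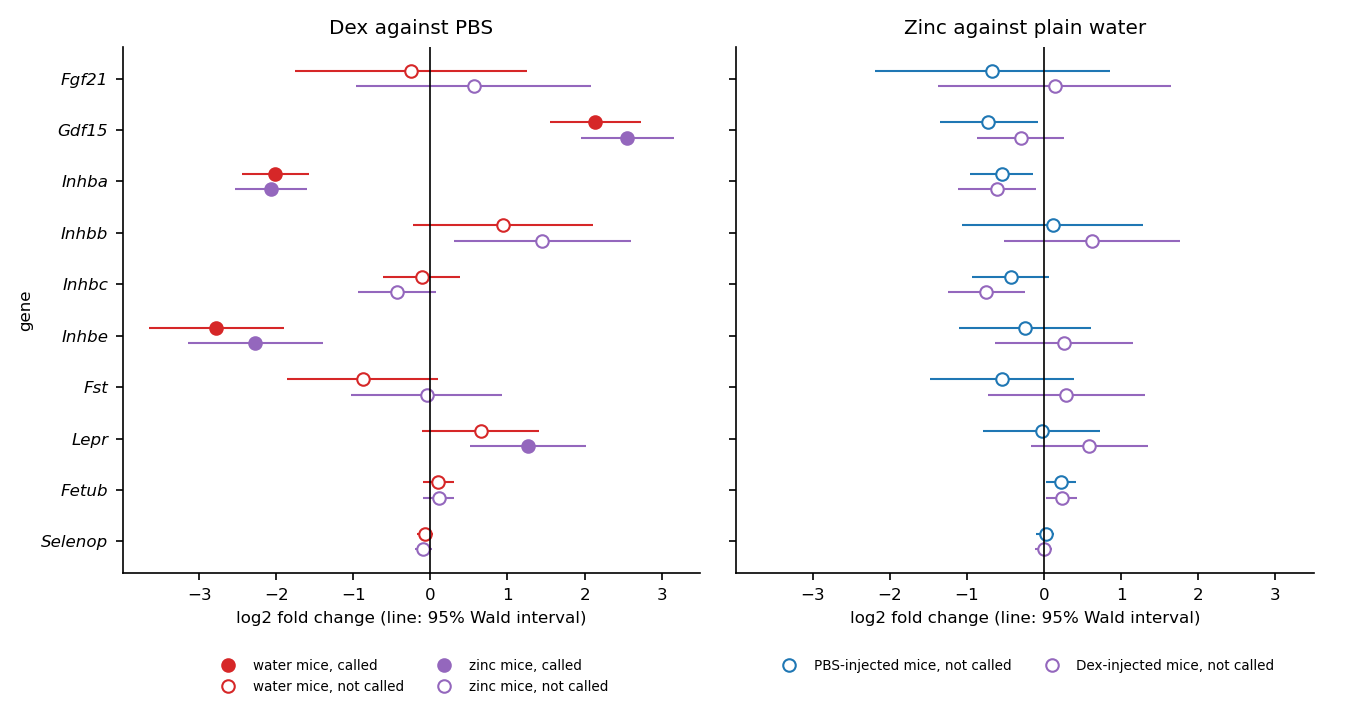
Log2 fold changes of the 10 genes with 95% Wald intervals; left, Dex against PBS in water and in zinc mice; right, zinc against plain water in PBS- and in Dex-injected mice. Filled points were called: 3 with Dex in water mice, 4 with Dex in zinc mice and 0 in either zinc comparison.

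The interaction of zinc and Dex was called for 0 of the 10 genes by DESeq2 and by edgeR (0.0191% of all tested genes by DESeq2), and 0 of the 10 had an unadjusted p under 0.05. The zinc difference averaged over PBS- and Dex-injected mice, also added after the data were seen, was called for 0 of the 10 (0.333% of all tested genes), with 4 at an unadjusted p under 0.05. Without the fold threshold 2 of the 10 passed, Inhba (-0.58, SE 0.165, adjusted p = 0.0262) and Inhbc (-0.59, SE 0.181, adjusted p = 0.0478), against 2.47% of all tested genes. By edgeR neither passed, with adjusted p of 0.0911 for Inhba and 0.132 for Inhbc, and without independent filtering neither passed (0.0556 and 0.101). Over the 6 alternatives that kept all libraries, Inhba passed in 4 and Inhbc in 3, and when each of the 12 libraries was left out in turn, Inhba passed in 4 cases and Inhbc in 3.

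Genes whose pattern over the 12 livers was most like that of a hepatokine gene were taken among 9573 genes averaging 50 or more normalized counts, by the root mean square difference of centred log2 counts. Nearest to Gdf15 was Slc45a3, at 0.30 where Gdf15 itself varied by 1.22, with Skil and Celsr1 next at 0.37. Inhba lay closest to Fzd7, Gata4 and Arhgap29 (0.36 to 0.37), and Inhbe to Hes1, Cda and Rnf152 (0.47 to 0.56). For Inhbb the nearest were Lpin2, Fosl2 and Nfkbia (0.47 to 0.48), for Inhbc Gss, Nfxl1 and Tspan33 (0.22 to 0.23), and for Lepr Epha2, Slc35a4 and Frmd4b (0.30 to 0.34). Skil, which encodes a repressor of SMAD transcription complexes, is itself a gene of the TGF-beta pathway list described next.

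Of the receptors, SMADs and extracellular inhibitors of activin and TGF-beta signalling, most did not pass the test with Dex, and those that did lay on both sides. Of 24 tested genes on this list, 2 were called higher and 3 lower in water mice, and 3 higher and 3 lower in zinc mice, 20.8% and 25% against 9.68% of all tested genes in each comparison, with median log2 fold changes of -0.13 and -0.18 against -0.01 over all tested genes. Skil rose from 264 ± 22.1 to 1033 ± 286 normalized counts in water mice (log2 fold change 1.97, adjusted p = 8.7e-15) and from 216 ± 56.9 to 797 ± 247 in zinc mice. Tgfbr3, a co-receptor that binds inhibin and TGF-beta, rose by 0.90 and 0.91. Smad9, a transducer of BMP signals, fell from 241 ± 71.3 to 62.4 ± 3.82 in water mice (-1.95, adjusted p = 9.4e-14) and from 191 ± 38.9 to 39.4 ± 9.23 in zinc mice (-2.27). Acvr1b, a type I activin receptor, fell with log2 fold changes of -0.85 and -1.11. Tgif1, a SMAD corepressor, fell in water mice (-0.96) and was not called in zinc mice (-0.79, under the fold threshold). In zinc mice the type II receptor gene Acvr2b fell (-1.50) and the pseudoreceptor gene Bambi rose (1.22), against uncalled values of -0.79 and 0.62 in water mice. Whether the responses of Tgif1, Acvr2b and Bambi differ between water and zinc mice was not shown by the calls alone, and no gene of the pathway lists was called for the interaction.

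**Figure D4:**
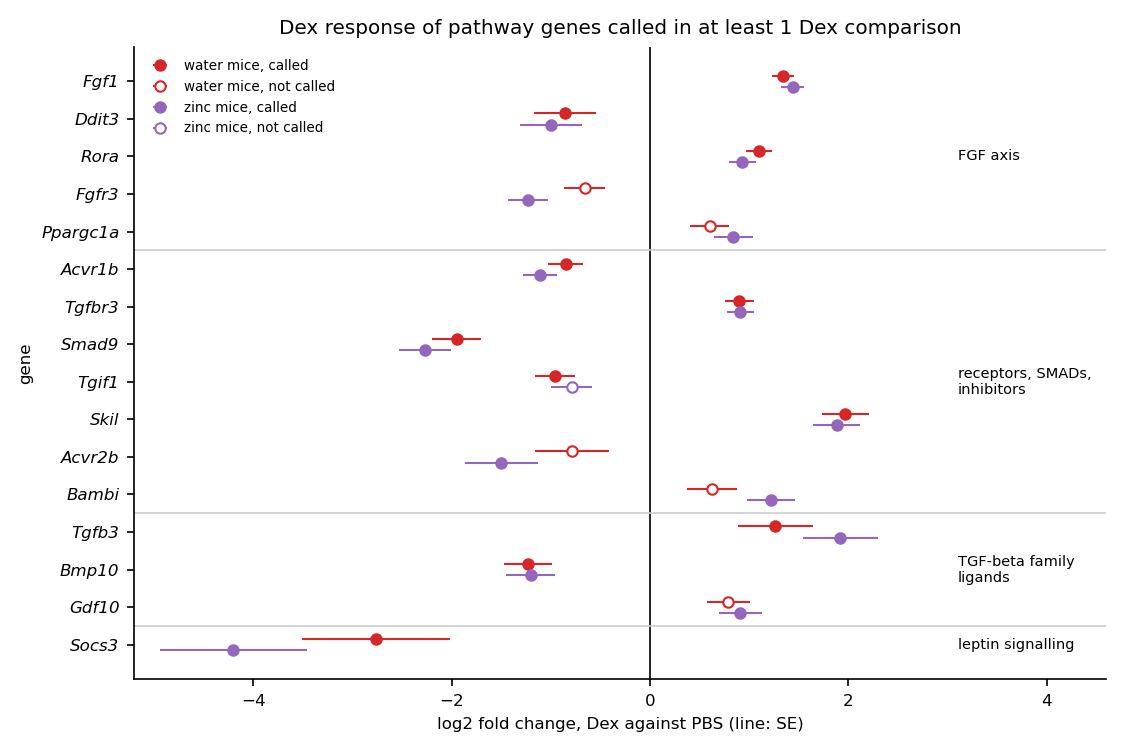
Dex log2 fold changes with SE in water and in zinc mice for genes of the FGF, TGF-beta and leptin lists that were called in at least 1 of the 2 comparisons; filled points were called. Skil rose and Smad9 fell by about 2 on the log2 scale in water mice (1.97 and -1.95), and Socs3 had the lowest values with wide errors.

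Among 21 other ligands of the TGF-beta family, 12 were tested with Dex in water mice, of which 1 was called higher and 1 lower, and 15 in zinc mice, of which 2 were higher and 1 lower (16.7% and 20% against 9.68% of all tested genes). Tgfb3 rose from 12.7 ± 1.61 to 30.5 ± 8.79 in water mice (1.26, adjusted p = 0.00652) and by 1.92 in zinc mice, and Bmp10, a ligand of the BMP branch, fell from 79.2 ± 3.24 to 33.7 ± 4.61 (-1.23, adjusted p = 3.7e-06) and from 66.9 ± 11 to 29 ± 2.61 in zinc mice (-1.20). Gdf10 rose by 0.91 in zinc mice and lay just under the fold threshold in water mice (0.79). The medians were -0.23 and -0.19.

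The FGF list holds 20 receptors, co-receptors, adaptors and regulators of Fgf21, of which 17 were tested. Dex called 2 higher and 1 lower in water mice, and 3 higher and 2 lower in zinc mice (17.6% and 29.4% against 9.68% of all tested genes), with medians of -0.03 and -0.07. Fgf1, a paracrine FGF with metabolic actions, rose from 1152 ± 75.2 to 2907 ± 78.2 normalized counts in water mice (1.34, adjusted p = 2.1e-29) and by 1.44 in zinc mice. Rora, a nuclear receptor known to activate Fgf21, rose by 1.10 and by 0.93. Ddit3, the CHOP gene, fell from 48.1 ± 11.8 to 26.6 ± 3.36 in water mice (-0.86, adjusted p = 0.0315) and from 50.1 ± 6.11 to 25.2 ± 10.9 in zinc mice (adjusted p = 0.00952), a low-count change that was called in 7 and 9 of the 12 fits without 1 library. Atf4, named after its values were seen because the composite element takes its product, differed by -0.04 in water mice (SE 0.0996) and 0.26 in zinc mice (SE 0.0995). Fgfr3 fell (-1.23) and the coactivator gene Ppargc1a rose (0.84) in zinc mice, with uncalled values of -0.66 and 0.60 in water mice, both under the fold threshold.

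On the leptin list, Socs3, the feedback inhibitor of leptin receptor signalling and a target of many cytokines, was the only 1 of 9 tested genes called with Dex, 11.1% against 9.68% of all tested genes, and it was lower in both backgrounds. It fell from 105 ± 26.7 to 15.5 ± 5.95 in water mice (-2.76, SE 0.744, adjusted p = 0.00178) and from 310 ± 340 to 16.9 ± 4.59 in zinc mice (-4.20, SE 0.739). The size in zinc mice rested on zinc-PBS replicate 1, without which it was -2.77. The transducers Jak2 and Stat3, named after their values were seen, lay at -0.17 and 0.06 in water mice and -0.35 and 0.19 in zinc mice and were not called.

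No gene of the selenoprotein list was called with Dex by DESeq2 or edgeR, 0 of 19 tested in either background, with an unadjusted p under 0.05 for 5 in water and 4 in zinc mice. The same held for 4 tested genes of the fetuin list, 0 of them with an unadjusted p under 0.05. Of the other liver-secreted hormones and binding proteins, Dex called 3 of 17 higher and 1 lower in water mice, and 4 of 18 higher and 1 lower in zinc mice, 23.5% and 27.8% against 9.68% of all tested genes. Igfbp1, which binds insulin-like growth factors, rose by 3.58 (SE 0.924, adjusted p = 0.00101, from 3.04 to 4.57 without 1 library) and 4.83 (SE 0.924), Tsku by 1.24 and 1.11, and Smoc1 by 0.99 and 1.02. Angptl4, an inhibitor of lipoprotein lipase, rose by 1.64 in zinc mice and was not called in water mice (1.16, adjusted p = 0.062). Angptl8, which is induced by feeding, fell from 988 ± 755 to 79.2 ± 25.7 in water mice (-3.64, adjusted p = 7.4e-12, and -2.81 at the least without 1 library) and from 559 ± 113 to 60.2 ± 1.35 in zinc mice (-3.22).

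With zinc, 0 of the 100 tested genes of these lists were called by DESeq2 or edgeR in PBS-injected mice, where 11 had an unadjusted p under 0.05, and 0 of 100 in Dex-injected mice, where 21 did. The share of all tested genes under that unadjusted level is not given here, so no excess can be read from these counts.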

How the data were processed

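Liver RNA from 12 mice was sequenced with a stranded, single-end TruSeq protocol. The authors mapped reads to mm10 with HISAT2 2.0.4 and counted uniquely mapped reads per gene with featureCounts, and they deposited raw read counts, so no normalization precedes the values used here; the strand setting of the counting is not given in the sources used here. All 12 count columns were used, and the labels gave the groups. Counts were fitted in DESeq2 1.42.0 (R 4.3.3) with all 12 libraries in 1 model of group, unshrunken Wald tests and Benjamini-Hochberg adjustment over all genes; genes were called at an adjusted p below 0.05 and an absolute log2 fold change above 0.8. Gene lengths were unions of GENCODE M21 exons. The script was tested on simulated data. Replicates are separate mice, with between 6.2 and 20.7 chi-square per degree of freedom between replicates of a group, so none were duplicates.

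The 10 genes, the pathway and marker lists and the motifs were chosen with earlier results of these data known. The genes named are these 10, list genes that were called (at most 4 per list, comparison and direction), check genes and the 3 most alike genes of each called member averaging 50 or more normalized counts. Genes named outside this rule are said to be so. Alternatives were edgeR 4.0.16 (quasi-likelihood), TMM factors, at least 10 counts in at least 3 libraries, no independent filtering, no Cook's distance filter, a replicate block, only the libraries compared, no fold threshold, the longest transcript as gene length, and each library left out in turn. Added after the data were seen were the 2 averaged contrasts, the Inhbe to Inhbc ratio and the RefSeq span of Inhbe. Intervals are 95% Wald intervals.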

Additional observations from a re-analysis of the deposited data

How the results depend on the processing

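Of 1202 recalculated log2 fold changes of the 10 genes, 1137 kept their direction and their side of the threshold, 21 lost and 6 gained a call, and 38 changed sign, 0 of these for a gene that was called. The calls of Gdf15, Inhba and Inhbe with Dex were kept in every alternative. The number of genes called when each library was left out in turn stayed at 3 with Dex in water mice, and ranged from 3 to 5 with Dex in zinc mice, from 3 (without zinc-Dex replicate 3) to 6 for zinc-Dex against water-PBS, from 4 to 5 for the averaged Dex contrast and from 0 to 2 for zinc in Dex-injected mice, the 2 being Gdf15 and Inhbc without zinc-Dex replicate 2. The averaged zinc contrast gave 2 genes with no fold threshold. By edgeR, Inhbb was also called with Dex in zinc mice (1.44, adjusted p = 0.0233). The Dex difference of the log2 ratio of Inhbe to Inhbc ranged from -2.51 to -2.19 when each library was left out in turn. The cause of these changes was not tested.

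The values whose sign changed when 1 library was left out were all uncalled. For zinc in PBS-injected mice the ranges were -1.65 to 0.19 for Fgf21, -0.73 to 0.54 for Inhbb, -0.38 to 0.23 for Lepr and -0.01 to 0.04 for Selenop; with Dex in water mice, -0.93 to 0.61 for Fgf21 and -0.30 to 0.08 for Inhbc; with Dex in zinc mice, -0.43 to 0.34 for Fst. For zinc in Dex-injected mice they were -0.24 to 0.81 for Fgf21, -0.24 to 0.66 for Inhbe and -0.03 to 0.03 for Selenop; for zinc-Dex against water-PBS, -0.63 to 0.75 for Fgf21; and for the interaction, -0.05 to 1.80 for Fgf21, -0.10 to 0.64 for Gdf15, -0.32 to 0.17 for Inhba, -0.08 to 0.10 for Fetub and -0.05 to 0.01 for Selenop.

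Mice with the same replicate number did not deviate together (correlations from -0.204 to 0.191), so the numbers do not pair the samples. With a replicate block 3 genes were called with Dex in water mice, 4 with Dex in zinc mice, 4 for zinc-Dex against water-PBS (Inhbb at an adjusted p of 0.0584 and Inhbc at 0.0565 were not called), 5 for the averaged Dex contrast and 0 for each zinc comparison and the interaction, and the Dex difference of Fst in zinc mice was 0.01. The averaged zinc difference of Inhbc then had an adjusted p of 0.316, and that of Inhba still passed without the fold threshold.

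Fgf21 and Fst had as few as 2 and 5 reads in a library; how much of their spread is counting error was not tested. The 3 mice per group leave intervals of about a log2 unit or more for Inhbb, Lepr and Inhbe. Levels per kilobase depend on the gene model, most of all for Inhbe.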
